A study of Mus musculus with 2 samples.

Results

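The forkhead family is a group of transcription factors that share a winged-helix DNA-binding domain. The genes described here were those whose symbol has the form Fox, a letter from a to s and a number, in the longer list of methylated regions of either mouse, except Foxa1, Foxa2, Foxa3 and Foxo1, which have well-known roles in hepatocytes. The rule found 23 genes of the 14480 with a listed region, 22 of 13071 in Pemt-/- and 23 of 14145 in Pemt+/+. All 23 matched a mouse gene of the RefSeq table by identifier. That table holds 40 symbols of this form, and the other 17, among them Foxf1, Foxj1, Foxk2, Foxo4 and Foxq1, had no line in either list and were not analysed here.

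Methylated DNA was captured from the liver and sequenced in 1 Pemt-/- and 1 Pemt+/+ mouse, both fed a high fat-high sucrose (HFHS) diet, by the sample records from week 5 to week 25 of age. Pemt encodes the enzyme that methylates phosphatidylethanolamine to phosphatidylcholine with S-adenosylmethionine, the methyl donor that DNA methylation also uses, and the Pemt-/- mouse lacks it. The comparison asks where methylated DNA differs between the genotypes. With 1 library per genotype there was no replicate check and no test, so a value describes a mouse and not a genotype. The longer lists held 97063 regions and 1582080 tags in Pemt-/- and 131279 regions and 2847831 tags in Pemt+/+, where a tag is a read counted in a region. Library totals are unknown, so a smaller tag number in Pemt-/- was the rule over the whole list and is read here only beside the same value over all genes. Inside Pemt itself, 2 regions were listed in each mouse. Methylated regions do not measure expression, so neither the genotype nor the liver origin of the DNA could be checked by marker genes.

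In mammals DNA is methylated mostly at the cytosine of CG dinucleotides. Many gene starts, those of developmental factors in particular, lie in CG-rich islands that stay unmethylated in most tissues, whereas the bodies of genes are commonly methylated. Forkhead genes act in many tissues: Foxc1, Foxd1, Foxi3 and Foxl1 in embryonic organs, Foxp3 in regulatory T cells, Foxm1 in dividing cells, and Foxo3 downstream of insulin and stress signals.

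The upstream sequences of 4 genes are shown because these genes differ in where their regions lie. Foxr1 had a methylated region over its transcript start in both mice. At Foxi3, Foxc1 and Foxo3 the nearest region assigned to the gene was several kb away. Each is the stretch of 250 bases before the RefSeq start in GRCm38.p6, 5′ to 3′, with CG in capitals. Their positions are chr9:44440869-44441118 on the minus strand for Foxr1, chr6:70956356-70956605 on the plus strand for Foxi3, chr13:31806396-31806645 on the plus strand for Foxc1 and chr10:42276696-42276945 on the minus strand for Foxo3.
Foxr1: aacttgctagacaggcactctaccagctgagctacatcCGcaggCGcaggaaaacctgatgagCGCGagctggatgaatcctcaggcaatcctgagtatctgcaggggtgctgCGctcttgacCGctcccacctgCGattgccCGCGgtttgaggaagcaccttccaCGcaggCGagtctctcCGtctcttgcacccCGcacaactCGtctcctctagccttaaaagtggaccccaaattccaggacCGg
Foxi3: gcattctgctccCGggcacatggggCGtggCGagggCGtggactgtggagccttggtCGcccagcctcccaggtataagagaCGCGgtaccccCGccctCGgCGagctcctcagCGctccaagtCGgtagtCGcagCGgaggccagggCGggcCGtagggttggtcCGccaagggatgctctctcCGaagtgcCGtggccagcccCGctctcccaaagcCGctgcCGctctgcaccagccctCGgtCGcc
Foxc1: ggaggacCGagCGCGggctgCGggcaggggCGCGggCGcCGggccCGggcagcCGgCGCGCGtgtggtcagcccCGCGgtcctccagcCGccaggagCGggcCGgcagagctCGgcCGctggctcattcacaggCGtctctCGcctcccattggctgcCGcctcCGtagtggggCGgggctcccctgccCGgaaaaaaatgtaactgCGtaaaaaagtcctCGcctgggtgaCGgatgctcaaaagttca
Foxo3: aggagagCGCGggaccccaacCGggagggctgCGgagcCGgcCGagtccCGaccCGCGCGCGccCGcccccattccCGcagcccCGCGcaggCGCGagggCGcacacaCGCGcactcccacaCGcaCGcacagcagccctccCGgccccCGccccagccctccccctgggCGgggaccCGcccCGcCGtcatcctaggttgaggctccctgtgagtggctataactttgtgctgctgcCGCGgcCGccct

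The Foxr1 stretch holds 15 CG, fewer than the 24 of Foxi3, the 29 of Foxc1 and the 31 of Foxo3. Counted over 300 bases, from 250 before to 50 after the start, the 18 RefSeq promoters of the 15 listed forkhead genes that the table covers held a median of 15.5 CG, from 5 to 44, against a median of 7 over 32851 promoters of all genes, of which 94.6% hold at least 1. By this count Foxj3 had 42 CG, Foxj2 37, Foxo3 35, Foxp4 33, Foxc1 32, Foxi3 31 and Foxr1 16, while Foxi2 had 5 and Foxn3 6. Neither Foxi2 nor Foxn3 had a region over its transcript start in either mouse. Foxp1 has 3 promoters in the table, with 44, 13 and 5 CG. Whether any of them belongs to the transcript of the lists was not determined. The captured regions themselves are given by their mm9 positions, the build of the lists.

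Methylated regions of these genes lay inside the genes rather than at their starts. In Pemt-/-, 97 of the 128 regions were inside a transcript (75.8%, Wilson 95% interval 67.7 to 82.4, against 71.3% of the regions of all genes), 12 were upstream within 10 kb (9.38% against 13.0%) and 17 were downstream (13.3% against 14.1%). In Pemt+/+, 120 of 165 were inside (72.7%, 65.5 to 79.0, against 70.7%), 12 upstream (7.27% against 13.3%) and 29 downstream (17.6% against 14.4%). Foxp1, Foxn3 and Foxp2 alone gave 71 of the 128 and 82 of the 165 regions, and without these 3 long genes the share inside was 56.1% in Pemt-/- and 55.4% in Pemt+/+. The share above all genes therefore rested on 3 members.

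A region over a transcript start was listed for 1 member in Pemt-/- and for 2 in Pemt+/+, which is 1 of 128 regions against 0.466% over all genes, and 2 of 165 against 0.495%. Foxr1, a member of the small FoxR subfamily (gene 382074), had it in both mice. The region chr9:44248535-44249343 held 24 tags in Pemt-/-, and chr9:44248510-44249389 held 48 tags in Pemt+/+. The other gene was Foxp1 in Pemt+/+, with 15 tags at chr6:99112577-99113080 and the smallest fold enrichment of any forkhead region in that mouse, 5.99. No Pemt-/- region overlapped it, and the nearest was 1782 bp away with 21 tags.

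The start position could be worked out from the listed distances for 12 of the genes. This needs a listed region upstream of the gene, so Foxr1, with a region over its start in both mice, is not among them. The nearest Pemt-/- region assigned to the gene was 2205 bp (Foxn4) to 38235 bp (Foxn2) away, with a median of 5728 bp, and 0 of the 12 had one within 1 kb. Regions outside a transcript are assigned up to 10 kb from it, so one farther upstream can be closer than an assigned one deep in a gene, as at Foxn2. Over all genes treated the same way the median was 4283 bp and 11.5% had a region within 1 kb. In Pemt+/+ the median was 3974 bp, against 3354 bp, and only the Foxp1 start was within 1 kb (8.33% of 12 against 14.7%). For Foxo3 the nearest such regions were 9406 and 9461 bp upstream in Pemt-/- and Pemt+/+, and for Foxi3 they were 3735 and 3722 bp downstream of the start. With 12 genes, a share of 0 or of 1 gene does not set the group apart from all genes.

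Overlap of at least 1 bp was taken as a shared region. Among the 128 regions listed in Pemt-/-, 101 were shared (78.9%, Wilson 95% interval 71.1 to 85.1, against 81.9% over all genes). Among the 165 listed in Pemt+/+, 101 were shared (61.2%, 53.6 to 68.3, against 59.8%). The other 27 and 64 regions were listed in 1 mouse alone, 21.1% and 38.8%, against 18.1% and 40.2% over all genes. Such regions occurred at 10 of 22 genes in Pemt-/- (45.5% against 44.8% of all genes) and at 15 of 23 in Pemt+/+ (65.2% against 75.7%). The shares were near those of all genes, except the share of genes in Pemt+/+, which was lower and rested on 23 genes.

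Regions listed in 1 mouse alone held fewer tags. Their median was 11 tags in Pemt-/- and 13 in Pemt+/+, against 15 and 23 tags for regions found in both mice, and the medians over all genes ran the same way (10 and 13 against 14 and 21). Within 1000 bp of a region of the other mouse were 9 of the 27 (33.3%, against 18.2% over all genes) and 10 of the 64 (15.6% against 13.2%), and the median gap was 2450 and 3470 bp, against 3840 and 5330 bp. Over all member regions the median was 14 tags in Pemt-/- and 18 in Pemt+/+ (13 and 17 over all genes). Fold enrichment over background had a median of 14.4 in Pemt-/- (95% interval of the median from order statistics 13.7 to 16.3) and 14.5 in Pemt+/+ (13.5 to 16.1), against 16.4 and 16.1 over all genes. The intervals here and below cover counting error only.

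Summed over its regions, the family held 2201 tags in Pemt-/- and 3787 in Pemt+/+, so that 36.8% of its tags came from Pemt-/- (Wilson 95% interval 35.5 to 38.0), against 35.6% over the tags of all genes. Without Foxp1, Foxn3 and Foxp2 it was 34.9%. Among 101 regions that paired one to one, the Pemt-/- region had a median of 0.714 times the tags of its Pemt+/+ partner (0.659 to 0.766), against 0.688 over the 37716 pairs of all genes. The Pemt-/- region had more tags in 9 pairs, 8.91% of them against 10.8% over all genes, the same number in 7 and fewer in 85.

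**Figure D1:**
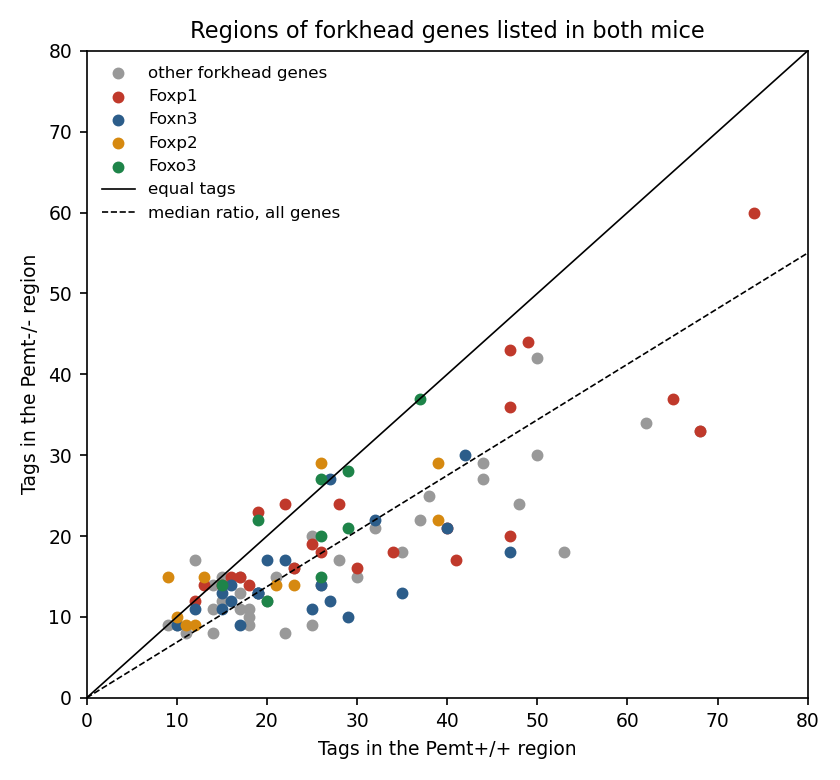
Tags in the Pemt-/- region (y axis) against tags in the overlapping Pemt+/+ region (x axis), 1 point for each of the 101 pairs of forkhead genes; the solid line marks equal tags and the dashed line the median ratio of all genes, 0.688. Of the 101 points, 85 lie below the solid line, 9 lie above it and 7 on it.

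The ratio was lowest at Foxc1, 0.340 with 18 against 53 tags, and highest at Foxp2, 1.67 with 15 against 9 tags. The 9 pairs with more Pemt-/- tags belonged to Foxp1 (3), Foxp2 (3), Foxo3 (2) and Foxk1 (1). They held 14 to 29 tags in Pemt-/-, where the median of the regions found in both mice was 15. The next highest ratio after Foxp2 was 1.42 at Foxk1, with 17 against 12 tags inside the gene. At the other end stood regions of Foxn3 (10 against 29 tags), Foxl1 (9 against 25), Foxo6 (8 against 22) and Foxn3 again (13 against 35).

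By gene, the family covered a wide range of tag numbers. Foxp1 (gene 108655), a FoxP repressor of transcription, held the most, 681 tags in 32 regions in Pemt-/- and 1085 tags in 35 regions in Pemt+/+. Foxn3 (gene 71375), known as a checkpoint suppressor, followed with 381 tags in 27 regions and 690 tags in 35 regions. Foxo3 (gene 56484) held 216 tags in 11 regions and 325 tags in 16 regions. Foxp2 (gene 114142), known for its role in the brain circuits of vocal learning, held 184 and 227 tags in 12 regions each, and Foxp4 106 tags in 7 regions and 213 tags in 11 regions. These 5 were the genes with the most tags over both mice, and in each of them the number was larger in Pemt+/+, as it was over the whole lists.

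**Figure D2:**
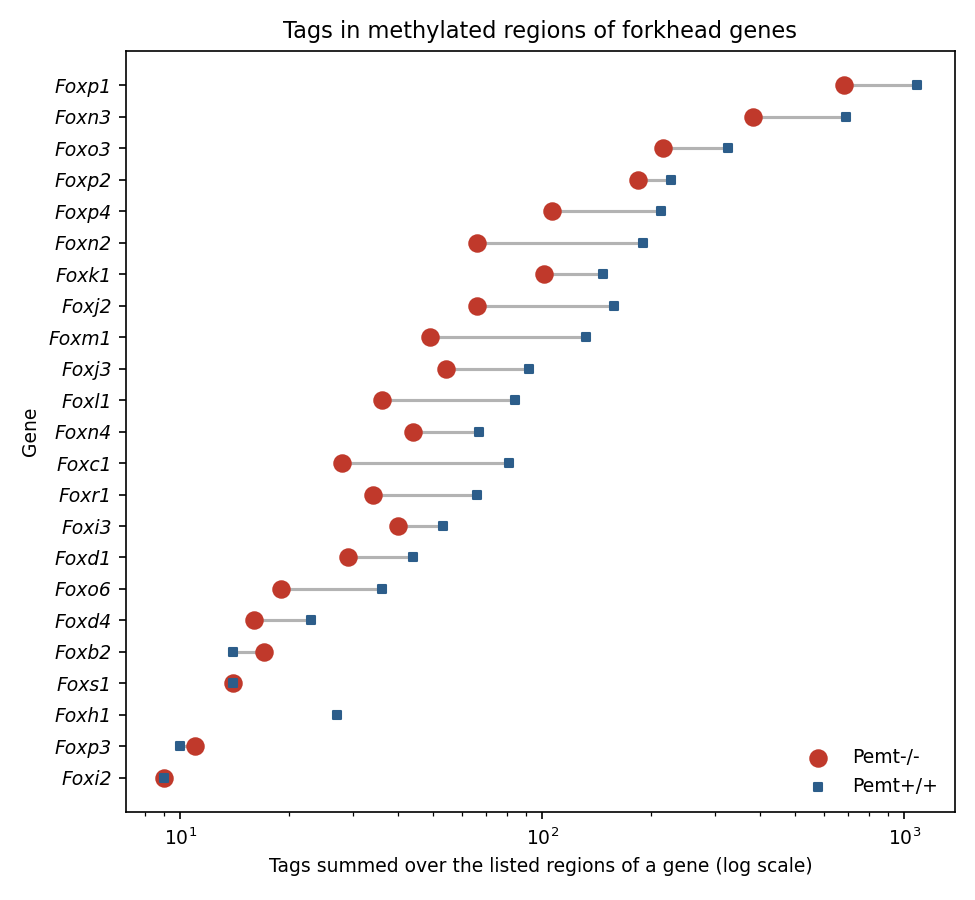
Tags summed over the listed regions of each gene (x axis, log scale) in Pemt-/- (red circles) and Pemt+/+ (blue squares), genes in order of their total. Pemt+/+ lies to the right for most genes, Foxb2 and Foxp3 lie the other way, Foxi2 and Foxs1 are equal, and Foxh1 has no Pemt-/- point because it had no listed region there.

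The share of a gene's tags that came from Pemt-/- was compared over genes listed in either mouse with 20 tags or more in total and a region in each. Over 12608 such genes the median was 36.1% and the quartiles were 30.8% and 41.3%. Of the 21 forkhead genes compared, 11 lay within these quartiles, 5 below and 5 above, and the interval of 14 included the median of all genes. At these tag numbers most of the shares could not be told from the median of all genes.

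**Figure D3:**
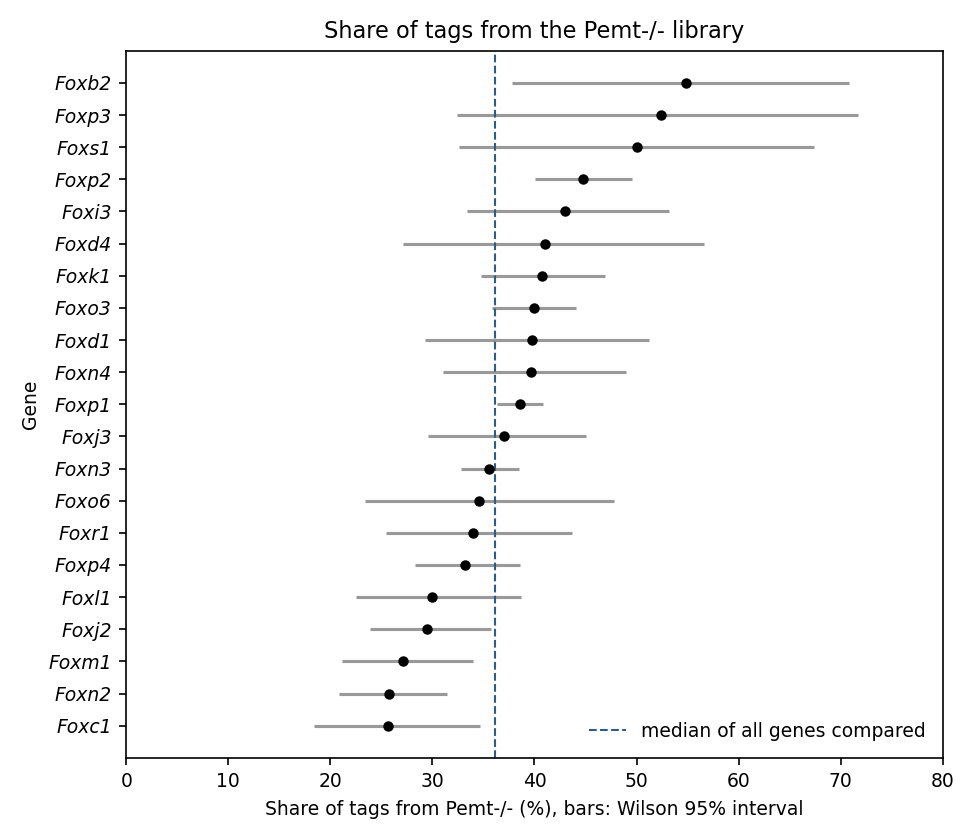
Share of each gene's tags that came from Pemt-/- in percent (x axis) with its Wilson 95% interval, for the 21 forkhead genes with at least 20 tags; the dashed line is the median of all genes compared, 36.1%. Foxc1, Foxn2, Foxm1 and Foxj2 lie wholly below the line, and Foxb2, Foxp2 and Foxp1 wholly above it.

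The lowest shares were those of Foxc1, Foxn2, Foxm1, Foxj2 and Foxl1. Foxc1, a regulator of eye, heart and skeletal development, had 28 tags in 2 upstream regions in Pemt-/- and 81 tags in 3 regions in Pemt+/+ (25.7%, interval 18.4 to 34.6). In both mice none lay inside the gene, and the region 9614 bp upstream in Pemt-/- and 9675 bp upstream in Pemt+/+ carried 18 and 53 tags. Foxn2 had 66 and 190 tags (25.8%, 20.8 to 31.5). Its 3 Pemt-/- regions had partners with 13 against 19, 33 against 68 and 20 against 25 tags, and Pemt+/+ had 3 further regions, of 35, 32 and 11 tags. Counting regions inside the transcript only, the share was 31.9%.

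Foxm1, which drives genes of mitosis, had 49 tags in 2 regions in Pemt-/- and 132 tags in 6 regions in Pemt+/+ (27.1%, 21.1 to 34.0). The region 5239 bp upstream of it in Pemt-/- had 34 tags against 62 in Pemt+/+, and the 4 regions without a Pemt-/- partner held 11 to 16 tags. Foxj2 had 66 and 158 tags (29.5%, 23.9 to 35.7), and all 4 of its Pemt-/- regions had a partner with more tags. Foxl1, which marks mesenchymal cells beneath gut epithelium, had 36 and 84 tags (30.0%, 22.5 to 38.7), all downstream of the gene. The median ratio over paired regions was 0.487 for Foxl1, 0.567 for Foxj2, 0.684 for Foxn2 and 0.715 for Foxm1, so that the last 2 were near all genes in the regions that both mice shared.

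The highest shares were those of Foxb2, Foxp3, Foxs1, Foxp2 and Foxi3, and 3 of them rested on few tags. Foxb2 had 17 tags in 2 regions in Pemt-/- and 14 tags in 1 region in Pemt+/+ (54.8%, 37.8 to 70.8), all downstream. The region that both mice shared had fewer tags in Pemt-/-, 8 against 14, and the second Pemt-/- region was 802 bp from the shared Pemt+/+ one. Foxp3, on the X chromosome, had 11 and 10 tags (52.4%, 32.4 to 71.7) in different places, 8124 bp upstream in Pemt-/- and inside the gene in Pemt+/+. Foxs1 had 14 tags in each mouse (interval of the share 32.6% to 67.4%) in 1 shared region inside the gene.

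Foxp2 had the only one of these shares with a narrow interval, 44.8% (40.0 to 49.6), above the upper quartile of all genes. It had 12 regions in each mouse, all inside the transcript, and 10 paired, with 166 tags in Pemt-/- and 203 in Pemt+/+. In 3 of the pairs Pemt-/- had more tags, 15 against 9, 15 against 13 and 29 against 26. Foxi3, a regulator of ectodermal organs such as teeth and hair, had 40 and 53 tags (43.0%, 33.4 to 53.2). Its region chr6:70910334-70910664 inside the gene, with 25 tags in Pemt-/- and 38 in Pemt+/+, had a fold enrichment of 49.3 in Pemt-/- and 45.1 in Pemt+/+, the highest of any forkhead region in each mouse. Foxj3 came next with 47.3 and 42.2, in a region of 42 and 50 tags inside that gene.

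Foxh1, which works with Smad proteins in Nodal signalling, was the only member listed in 1 mouse, Pemt+/+. Over all genes 9.73% were listed in Pemt+/+ alone and 2.31% in Pemt-/- alone. No region was listed for it in Pemt-/-, and Pemt+/+ had 2, of 11 and 16 tags, 2450 and 1189 bp downstream. Both lie inside the neighbouring gene Kifc2, so their assignment to Foxh1 follows from distance. The nearest Pemt-/- region was 18859 bp from the first of them. In the same way, another gene was also assigned to 8 of the 128 regions in Pemt-/- and 20 of the 165 in Pemt+/+, at Foxc1, Foxh1, Foxj2, Foxj3, Foxk1, Foxm1, Foxn4, Foxp3 and Foxs1.

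Among the regions of forkhead genes, the most tag-rich of both mice were at Foxp1. In Pemt-/- it was chr6:98879462-98880281, over the 3′ end of the transcript, with 60 tags against 74 in its Pemt+/+ partner. In Pemt+/+ it was chr6:98890677-98891953 inside the gene, with 77 tags and no partner. The closest Pemt-/- region was 674 bp away, held 36 tags and was paired with another Pemt+/+ region, of 47 tags. Fold enrichment did not follow the tags, at 13.0 for the first and 9.08 for the second.

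Along the 4 longest transcripts whose ends could be worked out, tags were denser towards the 3′ end. Of the tags inside Foxp1, a transcript of 232.9 kb, those nearer to the 3′ than to the 5′ end were 67.6% in Pemt-/- and 69.3% in Pemt+/+. For Foxn3, 255 kb, the values were 60.4% and 64.4%, for Foxo3, 90.96 kb, 63.6% and 62.8%, and for Foxp4, 57.5 kb, 70.1% and 64.8%. Over all transcripts of at least 50 kb with 5 regions or more, the median was 58.4% in Pemt-/- (683 genes) and 58.5% in Pemt+/+ (801 genes). Each of these transcripts was thus above the median in both mice, and the tilt itself is common to long genes.

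**Figure D4:**
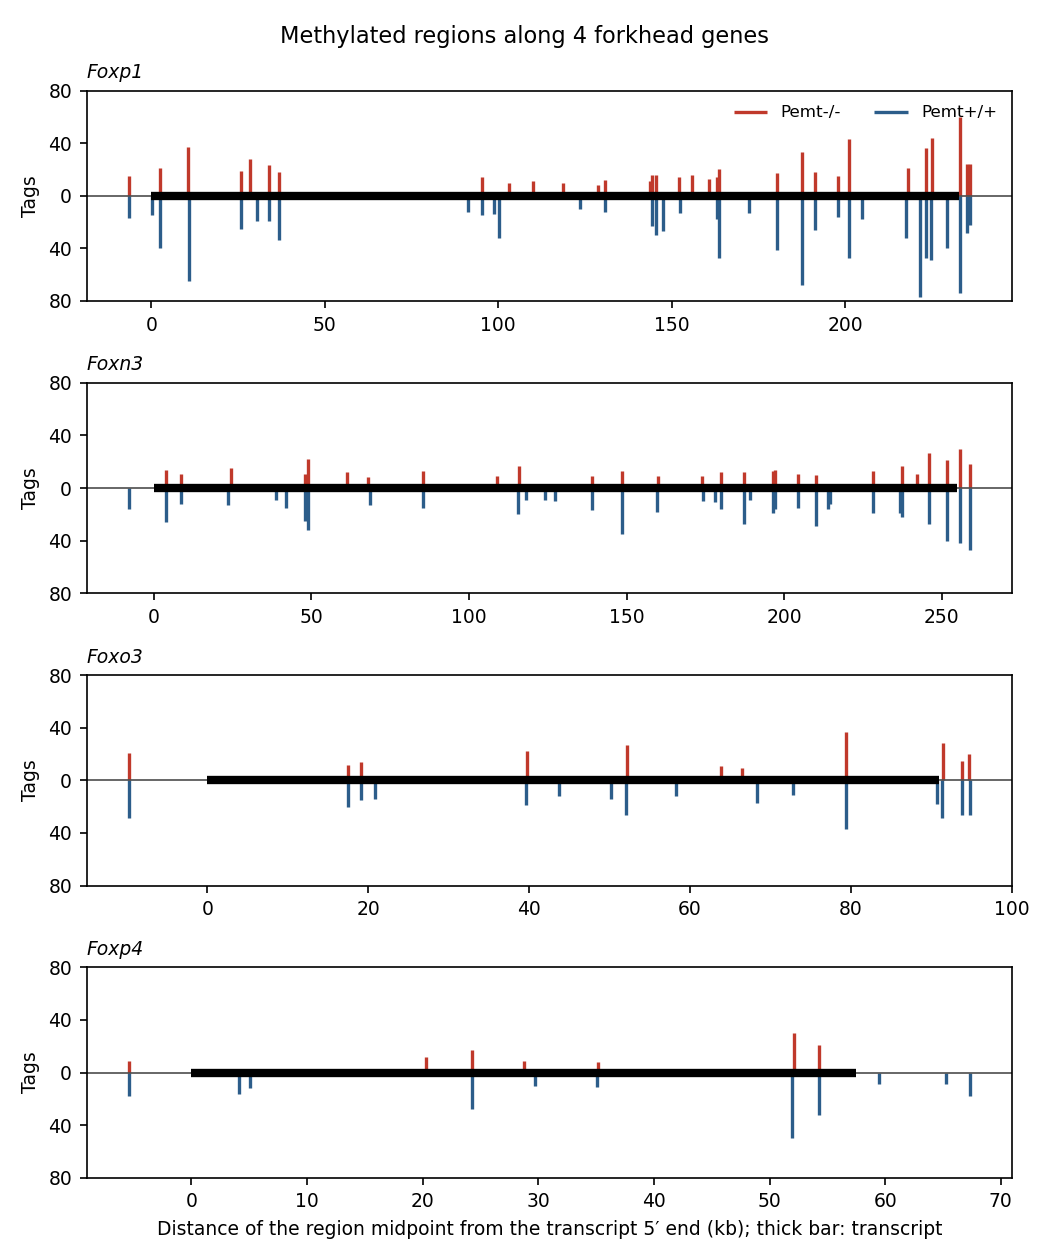
Tags of each listed region (y axis, Pemt-/- upward in red, Pemt+/+ downward in blue) against the distance of its midpoint from the transcript 5′ end in kb (x axis) for Foxp1, Foxn3, Foxo3 and Foxp4; the thick bar is the transcript. The overlapping Foxp1 regions over its 3′ end have 60 and 74 tags, and the first Pemt-/- region inside Foxo3 has its midpoint 17418 bp from the 5′ end.

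Density per length was above the median of long genes in these transcripts. Foxp1 had 12.0 regions per 100 kb in Pemt-/- and 13.3 in Pemt+/+, Foxn3 9.81 and 12.5, Foxo3 7.70 and 13.2, and Foxp4 10.4 and 12.2. The medians over 989 genes of at least 50 kb were 6.75 and 8.96. Foxn2, the next longest forkhead transcript with both ends worked out at 49.82 kb, lay below them with 4.01 and 6.02. Both ends could be worked out only for genes with a listed region on each side, which left out Foxp2. In Pemt-/- its 12 regions ran from chr6:14862072 to chr6:15385485, a longer stretch than the Foxp1 and Foxn3 transcripts measured here, with sparser regions. Foxp1 has other RefSeq starts, so the lengths of the whole genes were not compared. The 21 pairs of Foxn3 had a median ratio of 0.688, the same as over all genes. Of them, 0 had more Pemt-/- tags, against 10.8% of the pairs of all genes. Foxn3 stood at 35.6% of tags from Pemt-/- (32.8 to 38.5). With the higher-scoring 50% of each list alone, the Foxn3 share was 21.1%, against 36.6% for the median gene. That cut is by score in each list, so a region can be kept in 1 mouse while its partner is dropped.

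The FoxO genes are those that insulin restrains through phosphorylation by Akt. Foxo3 had 39.9% of its tags from Pemt-/- (35.9 to 44.1), within the quartiles of all genes. In its 9 paired regions the tags were almost even, 196 in Pemt-/- and 227 in Pemt+/+. Their median ratio was 0.933, against 0.688 over all genes. The interval for the 11 FoxO pairs together, 0.577 to 1.04, includes 0.688. The gap in the gene's total came largely from 7 regions listed in Pemt+/+ alone, of 11 to 18 tags. The pair with the most tags, near chr10:41916545-41917834 in Pemt-/-, held 37 tags in each mouse. Foxo6 had 19 and 36 tags in 2 regions outside the gene (34.5%, 23.4 to 47.8).

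For the pathway from insulin to FoxO, 10 of 13 symbols looked up had a region, with 516 tags in Pemt-/- and 740 in Pemt+/+ (41.1%, 38.4 to 43.8). Their 25 paired regions had a median ratio of 0.818 (0.750 to 0.864), against 0.688 over all genes, and Pemt-/- had more tags in 5. Pik3r1, a regulatory subunit of phosphoinositide 3-kinase, gave 206 of the 516 tags and 312 of the 740. The insulin receptor gene Insr had 49 and 65 tags, and the genes of its adaptors had 59 and 79 (Irs1) and 29 and 26 (Irs2). The Akt kinase genes had 58 and 92 (Akt1) and 40 and 98 (Akt2). Among FoxO targets, Igfbp1 had 24 and 22 tags, Pck1 17 and 21, and G6pc 14 and 25. Pdpk1, which phosphorylates Akt, had 20 tags in 2 regions in Pemt-/- and none listed in Pemt+/+. Of the 4 forkhead genes left out of the group, Foxa1 had 35 and 60 tags and Foxa3 21 and 30.

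The paired ratio had a median of 0.659 for the 9 developmental genes (10 pairs, 95% interval 0.360 to 1.0), 0.684 for Foxm1, the FoxN genes and Foxr1 (31 pairs, 0.538 to 0.750), 0.714 for Foxj2, Foxj3 and Foxk1 (11 pairs, 0.514 to 0.900), 0.755 for the FoxP genes (38 pairs, 0.656 to 0.882) and 0.786 for the FoxO genes (11 pairs, 0.577 to 1.04). These intervals overlap, so the order of the subfamilies was not resolved. Of the genes whose tag totals are not given above, Foxd1 had 29 and 44 tags in regions 7151 and 7412 bp upstream, Foxd4 16 and 23, Foxi2 9 and 9, Foxk1 101 and 147, and Foxn4 44 and 67.

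Each mouse also has a shorter list, with a false discovery rate (FDR) for each region. What it compares is not given in the sources used here. In Pemt-/- it held 4 regions of 2 forkhead genes, 8.70% of the 23 against 8.18% of all genes, namely Foxp1 with 10, 10 and 8 tags and Foxo3 with 17, each at an FDR of 100%. The regions of 17 and 8 tags were not in the longer list. In Pemt+/+ it held 12 regions of 9 genes, 39.1% of the 23 against 18.7% of all genes. By region the gap was smaller: 12 of the 165 longer-list regions were in it (7.27%) against 4.72% over all genes, and in Pemt-/- 2 of the 128 (1.56%) against 2.26%.

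The 9 genes were Foxb2, Foxc1, Foxj2, Foxk1, Foxl1, Foxn2, Foxp1, Foxp2 and Foxp4. Foxp4 had 3 regions, of 18, 9 and 12 tags, Foxj2 had 2 of 16 tags each, and the others 1 each. The most tags were in the Foxc1 region of 53, followed by Foxn2 with 35 and Foxp1 with 32. Of the 12, 7 lay outside the transcript and 2 overlapped a Pemt-/- region, at Foxc1 with 18 tags and at Foxb2 with 8. The FDR ran from 28.2% to 35.1%, with a median of 32.6%.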

How the data were processed

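Methylated DNA captured from the liver of 1 Pemt-/- and 1 Pemt+/+ mouse was analysed from 2 deposited region lists per mouse, in which each region is paired with RefSeq transcripts at up to 10 kb. The submitters' processing notes name CASAVA 1.8.2, Bowtie and the build mm9. The control, the handling of duplicates and the caller's settings are not given in the sources used here. The study's methods describe several male mice per genotype and a shorter feeding for the captured DNA, whereas the sample records give 1 mouse per library at 25 weeks and a bisulphite step before capture. These accounts could not be reconciled.

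Tags are counts of reads deposited per region. As deposited, fold enrichment is a ratio of tags in a region over background, the score is 10 times the −log10 p-value (at least 50 in every list), and the FDR is a percent. The deposited lengths, summits and distances are in bp.

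The members and lists were chosen with earlier results of these data known. A region counted once per gene, by its closest relation to a transcript. Overlaps used bedtools 2.31.1 (at least 1 bp), and the rest Python 3.11.15 with pandas 2.3.3, numpy 2.4.6, scipy 1.17.1 and matplotlib 3.10.9. Shares have Wilson 95% intervals and medians have order-statistic ones. Reads are not independent molecules and regions of a gene are not replicates, so both cover counting error only. Transcript ends were worked out from the listed distances. The steps were tested on simulated data. One gene of the insulin to FoxO list is not reported here and was left out of its values. Promoter sequences are from RefSeq, GRCm38.p6, and no position was carried between builds. Genes named with values were those with a region over a start, a region in a shorter list or regions in 1 mouse only, the 5 with the most tags, the 5 highest and 5 lowest tag shares, and the gene with the most tag-rich region of each mouse. Other genes and regions were named after their values were seen. Alternatives kept the higher-scoring 50% of each list, asked that overlaps cover 50% of both regions, made the lists equal in size, or dropped regions outside transcripts.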

Additional observations from a re-analysis of the deposited data

How the results depend on the processing

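No paired analysis was possible because there was a single library for Pemt-/- and for Pemt+/+, so no replicate could be left out either. Of the main values recomputed under the alternatives, 53 stayed within their counting interval (for counts of genes or regions, within 1.5 times the count reported) and 19 did not, and of the shares of single genes 60 and 17. Part of the values that stayed could not have moved. Asking for 50% overlap changes only which regions are shared or paired, and equal list sizes trimmed the Pemt+/+ list alone. With the upper 50% of each list by score, the forkhead genes had 55 regions in Pemt-/- and 72 in Pemt+/+, 6 genes had a region in Pemt-/- alone, 67.3% and 65.3% of regions were inside a transcript, the median fold enrichment was 18.5 and 19.0, and 34.9% of tags came from Pemt-/-. With lists of equal size, the shared regions were 67.2% in Pemt-/- and 74.8% in Pemt+/+, the median fold enrichment in Pemt+/+ was 17.3, and 41.9% of tags came from Pemt-/-, while the median gene moved from 36.1% to 40.0%. With regions inside or overlapping a transcript only, 14 genes in Pemt-/- and 15 in Pemt+/+ had a region, and 98.0% and 96.8% of these were inside. Without Foxp1, Foxn3 and Foxp2, an alternative chosen after seeing the data, 56.1% and 55.4% were inside and 34.9% of tags came from Pemt-/-. Among single genes, the share of tags from Pemt-/- with the upper 50% was 0% for Foxb2, 26.0% for Foxn4, 21.1% for Foxn3 and 100% for Foxs1. The median gene was at 36.6% under that setting. For Foxp3 the share was 100% with lists of equal size and 0% with regions inside or overlapping only. Differences between the mice smaller than these shifts cannot be told from effects of the processing. Larger ones were not tested, because there was 1 library per genotype.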
